A study of Mus musculus with 9 samples.

Results

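The 9 genes described here encode components and regulators of complement, chosen by name from the gene list of mouse knee single-cell RNA-sequencing libraries. They were *C1ra*, *C1s1*, *C3*, *C4b*, *C7*, *Cfb*, *Cd55*, *Serping1* and *Clu*, and all 9 were found among the 54534 features listed. The adult mice were *Gdf5-Cre;Tom;Pdgfrα-H2BGFP*, aged 11 to 12 weeks. In every animal, tdTomato (Tom) marked the descendants of embryonic joint interzone cells that had expressed *Gdf5*-driven Cre, and the *Pdgfrα* promoter drove a nuclear green fluorescent protein (GFP). Cells were sorted as Tom+ (*Gdf5*-lineage) or Tom-GFP+ (other *Pdgfrα*-expressing cells), so cells that lack both reporters were meant to be left out. Steady-state knees gave 2 Tom+ libraries and 1 Tom-GFP+ library, and knees taken 6 days after joint surface injury gave 4 Tom+ and 2 Tom-GFP+ libraries. The injury was made in the right knee, by opening the joint beside the patella and scratching the cartilage of the trochlear groove. Each Tom+ library came from 1 mouse. The Tom-GFP+ libraries came from matched mice, and which library was matched with which was not given in the sources used here, so libraries of opposite lineage may share an animal.

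Complement is a cascade of plasma and tissue proteins. In the classical pathway the C1 complex, whose proteases are C1r and C1s, cleaves C4 and C2. In the alternative pathway factor B joins C3b, and both routes meet at C3, the central component. C5 to C9 then assemble the membrane attack complex, of which C7 is the first part to insert into a membrane. The cascade is held back by the C1 inhibitor (encoded by *Serping1*), which blocks C1r and C1s, by the membrane protein CD55, which takes apart the C3 convertases, and by clusterin (*Clu*), a secreted chaperone that binds the terminal complex. Most circulating complement is made by the liver, and fibroblasts are among the cells that make it locally. CD55 is known on the lining fibroblasts of the synovium, where it is also a ligand of the adhesion receptor CD97.

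On GRCm38, with positions from GENCODE release vM21, *C1ra* (ENSMUSG00000055172) lies on the forward strand at chr6:124512405-124523443. The reverse-strand *C1s1* (ENSMUSG00000038521) lies at chr6:124530345-124542359, with 6902 bases between them. *C4b* (ENSMUSG00000073418) at chr17:34728380-34743882 and *Cfb* (ENSMUSG00000090231) at chr17:34856374-34862518 are on the reverse strand with 112492 bases between them. The reverse-strand *C3* (ENSMUSG00000024164) is elsewhere on the same chromosome, at chr17:57203970-57228136. The other 4 members are spread over the genome. *C7* (ENSMUSG00000079105) is at chr15:4988762-5063740, *Cd55* (ENSMUSG00000026399) at chr1:130439027-130462744 and *Serping1* (ENSMUSG00000023224) at chr2:84765387-84775444, all on the reverse strand. *Clu* (ENSMUSG00000022037) is on the forward strand at chr14:65968483-65981547.

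Promoters were read for *C3* and *Cd55*, members whose levels ran in opposite directions between lining and sublining cells below, and for *C1s1*, which ran the way of *C3*. Each sequence is the 250 bases before the RefSeq transcript start on GRCm38.p6, on the gene's own strand and from 5′ to 3′. Capitals mark matches on either strand to the letters TTCNNNGAA (the STAT motif), GGGNNNNNCC (NF-kB), TTGCNNAA (C/EBP) or GAAANNGAAA (ISRE).
*C3*, chr17:57228137-57228386, reverse strand: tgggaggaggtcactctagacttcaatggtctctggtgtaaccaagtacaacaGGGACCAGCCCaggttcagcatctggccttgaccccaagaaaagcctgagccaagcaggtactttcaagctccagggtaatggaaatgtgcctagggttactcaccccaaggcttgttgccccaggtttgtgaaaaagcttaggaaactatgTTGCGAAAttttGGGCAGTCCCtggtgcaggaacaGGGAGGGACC
*Cd55*, chr1:130462745-130462994, reverse strand: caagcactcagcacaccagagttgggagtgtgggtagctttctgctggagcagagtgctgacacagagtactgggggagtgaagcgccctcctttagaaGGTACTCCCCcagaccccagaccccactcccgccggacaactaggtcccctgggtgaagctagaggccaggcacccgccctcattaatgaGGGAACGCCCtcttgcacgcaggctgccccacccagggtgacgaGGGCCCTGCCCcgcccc
*C1s1*, chr6:124542360-124542609, reverse strand: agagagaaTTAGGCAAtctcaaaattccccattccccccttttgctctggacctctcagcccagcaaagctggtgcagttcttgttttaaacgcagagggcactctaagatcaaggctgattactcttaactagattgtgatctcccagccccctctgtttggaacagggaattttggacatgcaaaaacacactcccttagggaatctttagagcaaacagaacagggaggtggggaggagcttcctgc
The *C3* window held 4 matches to the NF-kB letters, of which the pair starting 197 and 196 bases before the start overlap on opposite strands, and 1 match to the C/EBP letters from 45 to 38 bases before the start. The *Cd55* window also held 4 matches to the NF-kB letters, with overlapping ones starting 17 and 16 bases before the start, and none to the other 3. The *C1s1* window held 1 match to the C/EBP letters, from 242 to 235 bases before the start. RefSeq gives *C1s1* a second start, whose window (chr6:124542322-124542571) held none to the C/EBP letters and 1 to the NF-kB letters, from 35 to 26 bases before it. These letters are common. Among 32851 windows of the same length, GGGNNNNNCC was matched in 45.8%, TTGCNNAA in 9.56%, TTCNNNGAA in 7.02% and GAAANNGAAA in 2.98%, so a match is a description of the sequence and nothing more. The *C7* window held 1 match to TTCNNNGAA, from 164 to 156 bases before its start. The *C1ra* window held no match to any of these letters. No promoter sequence was at hand for *C4b*, *Cfb*, *Serping1* and *Clu*.

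The files hold raw counts, for each gene in each barcoded cell, of unique molecular identifiers (UMIs). The libraries held 333 to 865 barcodes and 2866464 to 15033902 UMIs, and 4788 of 5161 barcodes were kept. Kept cells were assigned to classes by counting marker genes, and no complement gene was a marker. This gave 710 fibroblast-like synoviocytes of the lining (FLS), 2593 *Thy1*+/*Cd34*+ fibroblasts of the sublining, 280 tenocyte-lineage, 154 osteoblast-lineage, 81 chondrocyte-lineage, 91 mural and 108 immune cells. FLS held *Prg4* at 24416 to 45343 CPM (UMIs scaled to the class total) per library and fibroblasts at 269 to 2493 CPM. The leukocyte gene *Ptprc* was at 0 UMIs in both of these classes. The chondrocyte-lineage class differed by lineage. Summed FLS markers, which include *Prg4*, reached 11095 to 31790 CPM in its Tom+ libraries, against 359.8 CPM in the only Tom-GFP+ library. Of the 8 markers, 2 were at 0 in the steady-state Tom+ library and 3 in the injured Tom+ libraries. The study described Tom+ cells of its chondrocyte cluster as superficial zone chondrocytes. It described the Tom- cells there as mature or hypertrophic, with growth plate as their likely source. Whether FLS entered this class was not tested. Within a library, the UMIs of a class were added up where it had at least 10 cells, so n is a number of libraries. Fewer cells with a transcript and less of it in each cell cannot be told apart in such a sum. The p-values measure the spread between libraries. The reporter tdTom was at 276 to 660 CPM in Tom+ fibroblasts and 2.11 to 5.95 CPM in Tom-GFP+ fibroblasts.

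Of the injured libraries, Tom+ replicate 1 stood apart. It was the deepest, with a median of 18567 UMIs per kept cell, and 62.9% of its fibroblasts passed the gate for *Lrrc15*+ cells, against 21.6% to 31.9% in the other 3 injured Tom+ libraries. Its gene list had 2 columns, as in all 3 steady-state libraries, and that of the other 5 injured libraries had 3. Injury and this format can be told apart only through that library, so injury values with and without it are given below.

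Fibroblasts of the sublining held most complement transcripts. Of all UMIs in kept cells they held 89.3% for *C3* (of 21123 UMIs), 87.6% for *C7* (of 347), 87.1% for *Cfb* (of 5326), 84.1% for *C4b* (of 9389), 82.6% for *Serping1* (of 86637), 80.4% for *C1s1* (of 9299) and 75.9% for *C1ra* (of 9536). *Cd55* and *Clu* were placed differently. Of 7294 *Cd55* UMIs, 47.9% were in fibroblasts and 46.2% in FLS. Of 19575 *Clu* UMIs, 16.0% were in fibroblasts, 30.6% in the 81 chondrocyte-lineage cells, 8.3% in tenocyte-lineage cells and 39.2% in cells that passed no gate. These shares reflect the sort and the number of cells as well as the level in each cell.

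By level, fibroblasts ranked highest of 7 classes for 7 of the 9 genes, though the class means cover different libraries. In the 2 libraries with enough mural cells, the mural mean was above that of fibroblasts for *Serping1* (1305 against 897 CPM). The same held for *C1s1* (162 against 133 CPM), which was higher in only 1 of them. *C1ra* stood at 245 ± 91.0 CPM (SD, n = 9 libraries) in fibroblasts, 147 ± 67.1 (n = 8) in tenocyte-lineage, 104 ± 55.1 (n = 4) in osteoblast-lineage, 62.2 ± 12.6 (n = 2) in mural, 48.2 ± 11.1 (n = 8) in FLS, 26.3 ± 19.7 (n = 4) in chondrocyte-lineage and 3.14 ± 3.61 CPM (n = 3) in immune cells. Each class overlapped the next in this order. *C3* stood at 670 ± 296 CPM in fibroblasts, 203 ± 143 in tenocyte-lineage and 78.8 ± 84.6 in immune cells. It was lower in osteoblast-lineage (28.4 ± 55.0), chondrocyte-lineage (19.7 ± 32.1), FLS (10.8 ± 13.8) and mural cells (0.950 ± 1.34), and each class again overlapped the next. *C7* was at 9.30 ± 17.1 CPM in fibroblasts and had no UMI in the sums of the other classes. Among all kept cells, 1 *C7* UMI was found in a chondrocyte-lineage cell, in a library with too few such cells for a sum.

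**Figure D1:**
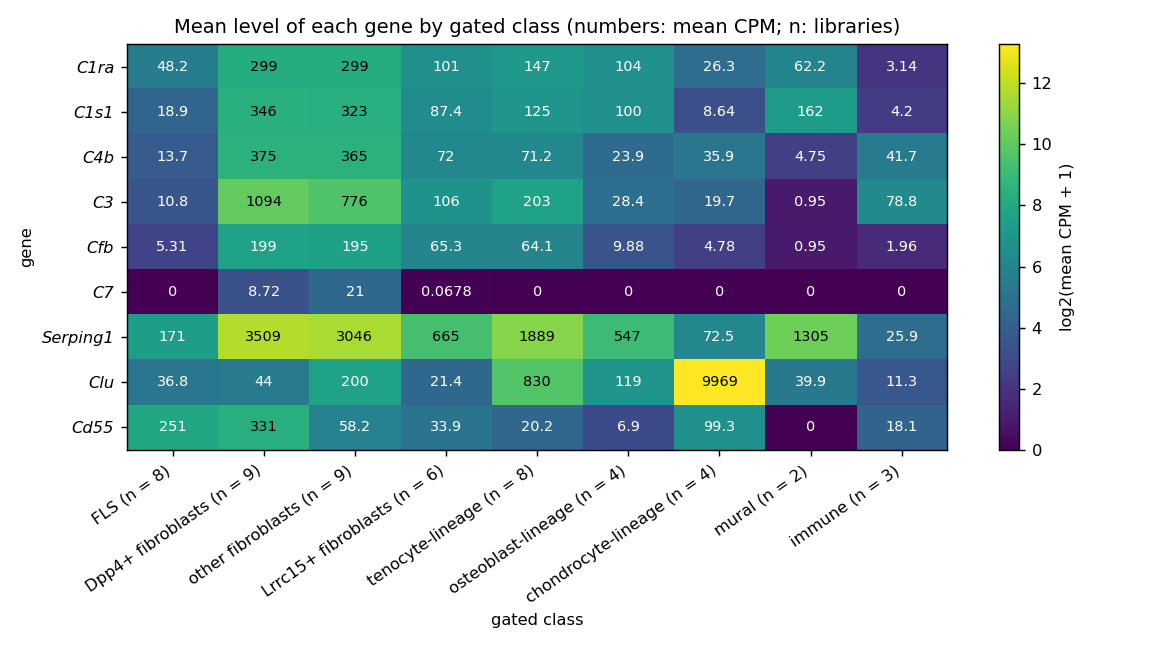
Mean level of each complement gene (rows) in each marker-gated class (columns, with fibroblasts split into subsets), coloured by log2(mean CPM + 1) with the mean CPM printed in each cell and n the number of libraries. *C3* is highest in *Dpp4*+ (1094) and other fibroblasts (776 CPM), *Cd55* in *Dpp4*+ fibroblasts (331) and FLS (251 CPM), and *Clu* in chondrocyte-lineage cells (9969 CPM).

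The lining and the sublining of the synovium were compared within libraries. Among the members tested, with steady-state and injured libraries pooled, *Cd55* was higher in FLS than in fibroblasts and the other 8 were lower. In FLS, *Cd55* was at 249 and 230.0 CPM in the steady-state Tom+ libraries, at 286, 289, 313 and 196 CPM in the injured Tom+ libraries and at 201 and 247 CPM in the injured Tom-GFP+ libraries. Fibroblasts of those libraries held 280.0 and 161 CPM, then 66.2, 53.2, 83.5 and 81.0, then 74.3 and 134 CPM. FLS were higher in 7 of 8 libraries, the exception being steady-state Tom+ replicate 1, and the ranges overlapped. In the 2 steady-state libraries the means were 240 CPM in FLS and 221 CPM in fibroblasts, with 1 library each way. A *Cd55* difference in the steady state is thus not shown. The means were 251 ± 42.2 and 117 ± 75.3 CPM (SD, n = 8 libraries), which gave a log2 fold change (log2FC) of 1.17 with a standard error (SE) of 0.32 (adjusted p = 0.00379, edgeR's quasi-likelihood test, Benjamini-Hochberg over all genes). By DESeq2 the call was lost (1.07, adjusted p = 0.165). Of all 9318 genes tested in this comparison 37.7% were called, 17.5% higher and 20.3% lower in FLS.

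The effector genes went the other way. *C3* was at 13.5, 43.4, 1.83, 8.39, 4.86, 3.47, 1.86 and 8.75 CPM in FLS of the same 8 libraries. In fibroblasts it was at 882, 1010.1, 74.3, 527, 698, 639, 469 and 709 CPM. The groups did not overlap, and even the lowest fibroblast library, injured Tom+ replicate 1, lay above every FLS library (log2FC -6.28, SE 0.47, adjusted p = 3.37e-12). *Cfb*, the protease of the alternative convertase, was at 5.31 ± 6.49 against 151 ± 65.0 CPM (-4.75, SE 0.31, adjusted p = 2.23e-13). *C4b* was at 13.7 ± 4.25 against 282 ± 153 CPM (-4.20, SE 0.32, adjusted p = 6.56e-12). Both were lower in FLS in 8 of 8 libraries, with no overlap.

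The proteases of C1 and their inhibitor were also lower in FLS, by unequal amounts. *C1s1* was at 10.8 to 33.7 CPM in FLS and at 50.9 to 319.8 CPM in fibroblasts, a log2FC of -3.61 (SE 0.22, adjusted p = 4.7e-14). *C1ra* was at 31.2 to 60.7 CPM in FLS and 46.3 to 351 CPM in fibroblasts, -2.30 (SE 0.21, adjusted p = 1.8e-10), and overlapped only through injured Tom+ replicate 1. *Serping1* was at 226, 273, 349.9, 101, 153, 81.2, 85.6 and 97.5 CPM in FLS, against 4508, 4766, 406, 1389, 2446, 2283, 1677 and 2045 CPM in fibroblasts. Its ranges did not overlap, and the log2FC was -3.77 (SE 0.43, adjusted p = 1.81e-08). *Clu* was at 36.8 ± 46.0 against 104 ± 70.7 CPM (-1.80, SE 0.46, adjusted p = 0.00242) with overlap, lower in FLS in each of the 8 libraries. *C7* had 0 UMIs in FLS. At 3 counts over the class, the limit that a count of 0 allows, it was at least 22.6-fold lower than the 5.42 CPM of fibroblasts in these libraries (adjusted p = 0.00217, and 0.572 by DESeq2).

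For *Cd55*, *C3* and *Serping1* the same order was seen cell by cell after each cell was thinned to 5000 UMIs. Of 2418 thinned fibroblasts, 28.6% held a *Cd55* UMI, 56.0% a *C3* UMI and 83.3% a *Serping1* UMI (43.5%, 65.2% and 92.3% unthinned). FLS held a *Cd55* UMI in 57.3% of 701 cells (85.9% unthinned, at a median of 17537.5 UMIs), against 1.27% of 79 mural cells. For each gene the class with the lowest mean level is given as a reference, not as a measure of background. For *C3* the share was 2.15% of 650 FLS in injured libraries (5.63% unthinned), beside 2.86% of 70 mural cells, where 2 cells held a UMI. These few cells set no background. Mean *C3* was 10.8 CPM in FLS (n = 8 libraries) and 0.950 CPM in mural cells (n = 2). In the steady state the share was 5.88% of 51 FLS (9.43% unthinned) and 0 of 9 mural cells, too few to compare. For *Serping1*, 26.2% of FLS held a UMI (43.4% unthinned), against 7.79% of 77 immune cells.

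Within the sublining, 3 fibroblast subsets were separated by markers other than the complement genes. The *Dpp4*+ gate uses genes of universal fibroblasts such as *Dpp4* and *Pi16* (628 cells), the *Lrrc15*+ gate uses genes of an injury-associated state such as *Lrrc15* and *Adam12* (609 cells), 106 passed both and were left out of this comparison, and 1250 passed neither. *Cd55* is itself known as a marker of *Dpp4*+ fibroblasts and was kept out of the gate.

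*Cd55* was the member that separated *Dpp4*+ cells most. In order of steady-state Tom+, injured Tom+, steady-state Tom-GFP+ and injured Tom-GFP+ libraries, *Dpp4*+ cells held *Cd55* at 624 and 352, then 421, 178, 294 and 215, then 247, then 251 and 399 CPM. Other fibroblasts held it at 87.8 and 43.2, then 105, 38.2, 60.3 and 34.2, then 50.5, then 41.8 and 63.0 CPM. Every *Dpp4*+ value lay above every value of the other cells. The log2FC was 2.51 (SE 0.13, adjusted p = 2.13e-11, n = 9 libraries), where 15.5% of 9224 genes were called, 7.48% higher and 8.07% lower. Thinned to 5000 UMIs, 61.4% of 599 *Dpp4*+ cells held a *Cd55* UMI, against 18.7% of 1106 other fibroblasts (76.6% and 30.7% unthinned).

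Of the other members, *C3* was higher and *Clu* lower in *Dpp4*+ cells. *C3* was at 1094 ± 362 against 776 ± 257 CPM (log2FC 0.55, SE 0.15, adjusted p = 0.0154), higher in 9 of 9 libraries though the ranges overlapped. With stricter gates that call was lost (0.25, adjusted p = 0.446). *Clu* was at 44.0 ± 32.3 against 199.7 ± 107 CPM (-2.28, SE 0.36, adjusted p = 8e-05), lower in 8 of 9 libraries. The other 5 members tested did not pass. *C1ra* was at 299 ± 105 against 299 ± 93.9 CPM, *C1s1* at 346 ± 106 against 323 ± 104, *C4b* at 375 ± 138 against 365 ± 169, *Cfb* at 199 ± 136 against 195 ± 83.4 and *Serping1* at 3509 ± 894 against 3046 ± 1355 CPM (adjusted p = 0.138). *C7* was too low to be tested.

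*Lrrc15*+ cells were lower in 8 of the 8 members tested, in the 6 injured libraries, where 9.05% of all 9224 genes were called lower and 16.0% in either direction. *C3* was at 51.4, 75.2, 170.4 and 125 CPM in the Tom+ libraries and 93.6 and 123 CPM in the Tom-GFP+ libraries. The other fibroblasts of those libraries held 124, 722, 996 and 785, then 864 and 940.0 CPM. Injured Tom+ replicate 1 was the lowest in both, and its other fibroblasts overlapped the *Lrrc15*+ range (log2FC -2.72, SE 0.20, adjusted p = 2.78e-08). *Serping1* was at 213, 482, 859, 929, 710.4 and 797 CPM in *Lrrc15*+ cells, against 734, 1713, 3406, 2641, 2723 and 2594 CPM (-1.96, SE 0.20, adjusted p = 1.87e-06).

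The remaining members had the same direction. *Clu* was at 21.4 ± 14.0 against 150.1 ± 87.5 CPM (log2FC -3.29, SE 0.43, adjusted p = 2.26e-05) with no overlap. For *C4b* the log2FC was -2.42 (SE 0.25, adjusted p = 1.94e-06), for *C1s1* -1.96 (SE 0.20, adjusted p = 1.94e-06), for *Cfb* -1.69 (SE 0.22, adjusted p = 2.18e-05) and for *C1ra* -1.50 (SE 0.15, adjusted p = 1.16e-06), all lower in 6 of 6 libraries. *Cd55* was at 33.9 ± 6.35 against 57.1 ± 26.3 CPM (-0.68, SE 0.17, adjusted p = 0.0086), lower in 5 of 6, and without injured Tom+ replicate 1 it did not pass (-0.38, adjusted p = 0.109). Thinned to 5000 UMIs, 20.5% of 606 *Lrrc15*+ cells of the injured libraries held a *C3* UMI (37.4% unthinned) against 60.8% of 673 other fibroblasts (67.4% unthinned), and 60.1% against 81.6% held a *Serping1* UMI (80.7% and 90.4% unthinned).

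**Figure D2:**
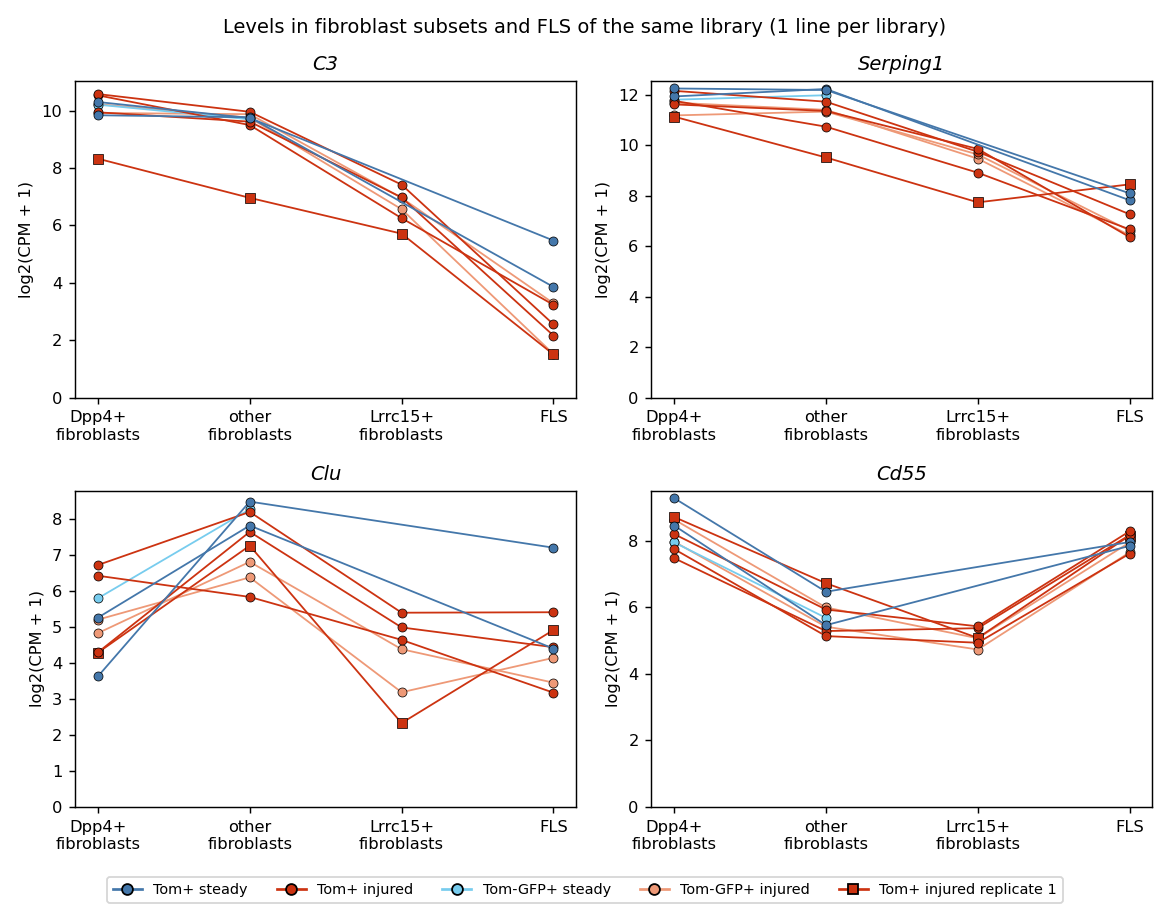
Levels of *C3*, *Serping1*, *Clu* and *Cd55* as log2(CPM + 1) in *Dpp4*+, other and *Lrrc15*+ fibroblasts and in FLS, with 1 line per library coloured by group and a square for injured Tom+ replicate 1. *C3* steps down from left to right in every library, while *Cd55* is high at both ends, in *Dpp4*+ fibroblasts and in FLS.

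*Clu* was the member most prominent outside the sublining. In chondrocyte-lineage cells it was at 6905 CPM in steady-state Tom+ replicate 2, 18847 and 11319 CPM in injured Tom+ replicates 3 and 4 and 2804 CPM in injured Tom-GFP+ replicate 1. Fibroblasts of those libraries held 226, 158, 111 and 36.2 CPM. No value of one class reached the other, and the means were 9969 ± 6865 and 133 ± 79.8 CPM (SD, n = 4 libraries). The log2FC was 6.05 (SE 0.56, adjusted p = 1.47e-09), where 22.4% of 9318 genes were called and 13.5% were lower. A UMI of *Clu* was found in 81.0% of 63 thinned chondrocyte-lineage cells (88.9% unthinned), against 6.49% of 77 immune cells.

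Most other members were lower in chondrocyte-lineage cells than in fibroblasts. They were, with the same 3 statistics in each bracket, *Serping1* (log2FC -4.86, SE 0.70, adjusted p = 3.8e-06), *C1s1* (-4.82, 0.58, 2.23e-07), *C1ra* (-3.40, 0.48, 3.57e-06), *C4b* (-3.12, 0.61, 0.000289), *Cfb* (-5.29, 0.88, 3.19e-05) and *C3* (-4.82, 0.79, 2.86e-05). The median of all genes in this comparison stood at -0.21 and moved by 0.20 with another scaling, well under these sizes. *Cd55* had 0 UMIs in the 3 Tom+ libraries and 397 CPM in injured Tom-GFP+ replicate 1, the library whose chondrocyte-lineage cells were low in FLS markers.

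Tenocyte-lineage cells also held more *Clu* than fibroblasts. It was at 3807 CPM in steady-state Tom+ replicate 2, at 26.8, 83.1, 909 and 311 CPM in the injured Tom+ libraries, at 960.0 CPM in the steady-state Tom-GFP+ library and at 362 and 177 CPM in the injured ones. This was above the fibroblasts of the same library in 7 of 8, all but injured Tom+ replicate 1. This gave a log2FC of 2.22 (SE 0.43, adjusted p = 0.00115), where 5.9% of all genes were called and 3.97% were lower. Summed cartilage markers in these cells were at 5408 and 4942 CPM in the 2 steady-state libraries against 263 to 489 CPM in the 6 injured ones, and their part in the *Clu* values was not tested. With stricter gates the call was lost (2.31, adjusted p = 0.0856).

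The cascade genes were lower in tenocyte-lineage cells than in fibroblasts. Again as log2FC, SE and adjusted p, *C4b* (-1.89, 0.29, 8.55e-05), *C3* (-1.54, 0.35, 0.00568), *Cfb* (-1.20, 0.25, 0.00261), *C1s1* (-0.94, 0.20, 0.00233) and *Cd55* (-2.29, 0.45, 0.00139) passed. With stricter gates *Cfb*, *C1s1* and *Cd55* did not (adjusted p = 0.352, 0.238 and 0.144), and *C3* did not by DESeq2 (adjusted p = 0.223). *C1ra* was at the edge (-0.68, SE 0.20, adjusted p = 0.0395) and was lost when any of 7 libraries was left out (adjusted p from 0.0596 to 0.152). *Serping1* was at 1889 ± 1833 against 2352 ± 1374 CPM (adjusted p = 0.423), and *C7* had 0 UMIs, which makes it at least 15.4-fold lower than the 9.28 CPM of fibroblasts (adjusted p = 0.0145, and 0.902 by DESeq2).

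Osteoblast-lineage cells had 10 or more cells in 4 Tom+ libraries. *C3* was at 111 and 2.65 CPM in the steady-state libraries and at 0 in injured replicates 1 and 2, against 882, 1010.1, 74.3 and 527 CPM in their fibroblasts. With a log2FC of -5.23, it was lower in each (SE 0.74, adjusted p = 5.18e-06), where 13.3% of all genes were called and 7.19% were lower. In the same order of statistics, *Cd55* (-4.65, 0.97, 0.00102), *Cfb* (-4.09, 0.60, 9.59e-06) and *C4b* (-3.53, 0.56, 2.84e-05) were also lower. The differences were smaller for *Serping1* (-2.29, 0.54, 0.0034), *C1s1* (-1.36, 0.30, 0.00194) and *C1ra* (-1.14, 0.31, 0.0102). *Clu* stood at 119 ± 118 against 116 ± 92.1 CPM (adjusted p = 0.974).

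Mural cells, which wrap small vessels, were available in injured Tom+ replicates 1 and 2 only. They held the C1 inhibitor without the later components. *Serping1* was at 1099 and 1511 CPM, against 406 and 1389 CPM in fibroblasts, and *C1s1* at 116 and 209 against 50.9 and 215 CPM. Neither passed the test. Its fitted log2FC for *Serping1* was -0.38 (SE 0.66, adjusted p = 0.793), opposite in direction to the raw CPM. For *C1s1* it was 0.04 (SE 0.35, adjusted p = 0.978). *C3* was at 1.90 and 0 CPM (log2FC -7.39, SE 1.43, adjusted p = 0.000299), *Cfb* at 1.90 and 0 (-5.96, 1.12, 0.000205) and *C4b* at 9.50 and 0 (-3.80, 0.92, 0.00343), where 16.8% of all genes were called. Without injured Tom+ replicate 2, *C4b* did not pass (-2.45, adjusted p = 0.197), and *C1ra*, at 53.2 and 71.1 CPM (-1.21, SE 0.43, adjusted p = 0.0487), did not either (-0.92, adjusted p = 0.413). *Cd55* had 0 UMIs, at least 15.5-fold below the 61.9 CPM of the fibroblasts.

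Immune cells were few in this sort, with 10 or more in 3 injured libraries. *C3* was at 27.9 and 31.9 CPM in Tom+ replicates 3 and 4 and 176 CPM in Tom-GFP+ replicate 2. *C4b* was at 86.2, 39.0 and 0 CPM and *Serping1* at 25.6, 14.2 and 37.8 CPM. These cells were not part of a test.

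After injury, the 9 members were compared in fibroblasts of the Tom+ lineage, to ask whether joint surface injury changed them. *Cd55* was the 1 member of 9 that passed the test, with a lower level after injury, and 11.7% of 12727 genes were called in this comparison (7.19% lower). It was at 280.0 and 161 CPM in the steady state and at 66.2, 53.2, 83.5 and 81.0 CPM after injury, with no overlap. The means were 221 ± 83.9 and 71.0 ± 14.1 CPM (SD, n = 2 and 4 libraries), and the log2FC was -1.69 (SE 0.31, adjusted p = 0.0140). Without steady-state replicate 1 the call was lost (-1.23, adjusted p = 0.129). It was also lost without *Lrrc15*+ cells (-1.11, adjusted p = 0.0525) and in *Dpp4*+ cells alone (-0.84, adjusted p = 0.164).

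*Serping1* had the widest gap in CPM. It was at 4508 and 4766 CPM in the steady state and at 406, 1389, 2446 and 2283 CPM after injury, with no overlap. The log2FC was -1.56 (SE 0.54) and the adjusted p was 0.0874. Without injured replicate 1, by far the lowest library, the fold was smaller and passed (-1.21, adjusted p = 0.0102). By DESeq2 it also passed (-1.52, adjusted p = 0.0292). In *Dpp4*+ cells alone the log2FC was -0.38 (adjusted p = 0.512), with 3934 and 4901 CPM in the steady state and 2259, 3489, 4591 and 3162 CPM after injury.

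*C3* did not pass the test for injury. It was at 882 and 1010.1 CPM in steady-state Tom+ fibroblasts and at 74.3, 527, 698 and 639 CPM in injured ones (-1.02, SE 0.64, adjusted p = 0.314). No injured library reached the steady-state range, and injured replicate 1 lay far below the other 3. Without it the log2FC was -0.63 (adjusted p = 0.0831). With gene-list format as a block term, which leaves that library alone to stand for injury, it was -3.73. In *Dpp4*+ cells alone *C3* was at 916 and 1262 CPM in the steady state and at 320.1, 1483, 1529 and 984 CPM after injury, with a log2FC of 0.00 (adjusted p = 0.999). *Clu* was at 158 and 226 CPM and then at 34.3, 45.8, 158 and 111 CPM (-1.20, SE 0.54, adjusted p = 0.169).

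The other members had lower means after injury and did not pass. *C1ra* was at 323 ± 39.5 CPM in the steady state and 191 ± 100 CPM after injury (adjusted p = 0.324), *C1s1* at 299 ± 29.4 and 191 ± 94.5 (0.378), *C4b* at 407 ± 65.9 and 204 ± 141 (0.395), *Cfb* at 172 ± 40.5 and 142 ± 93.8 (0.741) and *C7* at 2.43 ± 2.74 and 0.748 ± 1.34 CPM (0.463). All 9 log2FC values were below 0, with a median of -1.05 against -0.02 over all genes. At an unadjusted p under 0.05 there were 2 of the 9, against 30.9% of all genes.

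These directions depended on which cells and libraries entered. In *Dpp4*+ cells alone 7 of the 9 were above 0, with a log2FC of 0.05 for *C1ra*, 0.47 for *C1s1*, 0.52 for *C4b*, 0.97 for *Cfb*, 1.29 for *Clu*, 0.03 for *C7* and 0.00 for *C3*. *Cfb* was also above 0 without *Lrrc15*+ cells (0.26). Without injured replicate 1 it stood at 0.03 (adjusted p = 0.967), and *C1ra* (-0.46, adjusted p = 0.126), *C1s1* (-0.36, 0.256), *C4b* (-0.65, 0.282), *Clu* (-0.90, 0.175) and *C7* (-1.51, 0.606) did not pass, while *Cd55* did (-1.63, 0.00581). With gene-list format as a block term, injured replicate 1 alone stands for injury. The log2FC was then -2.86 for *C1ra*, -2.61 for *C1s1*, -4.26 for *C4b*, -2.47 for *Cfb* and -2.54 for *Clu*. It was -3.57 for *Serping1*, -1.79 for *Cd55* and -6.42 (SE 3.59) for *C7*.

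The share of *Lrrc15*+ cells, which were low in these genes, moved with injury. It was 0.437% and 0.314% of fibroblasts in the steady-state Tom+ libraries and 62.9%, 31.9%, 31.3% and 21.6% in the injured ones, while *Dpp4*+ cells went from 33.6% and 35.2% to 5.33%, 11.9%, 14.3% and 22.9%. The summed levels of 8 FLS markers in these fibroblasts also moved, from 641 to 1007 CPM in the steady state to 1209 to 2685 CPM after injury, with none of the 8 at 0, and those of 6 immune markers were at most 2.45 CPM. The part of these shares and markers in the injury values was not tested beyond the fits by subset above.

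**Figure D3:**
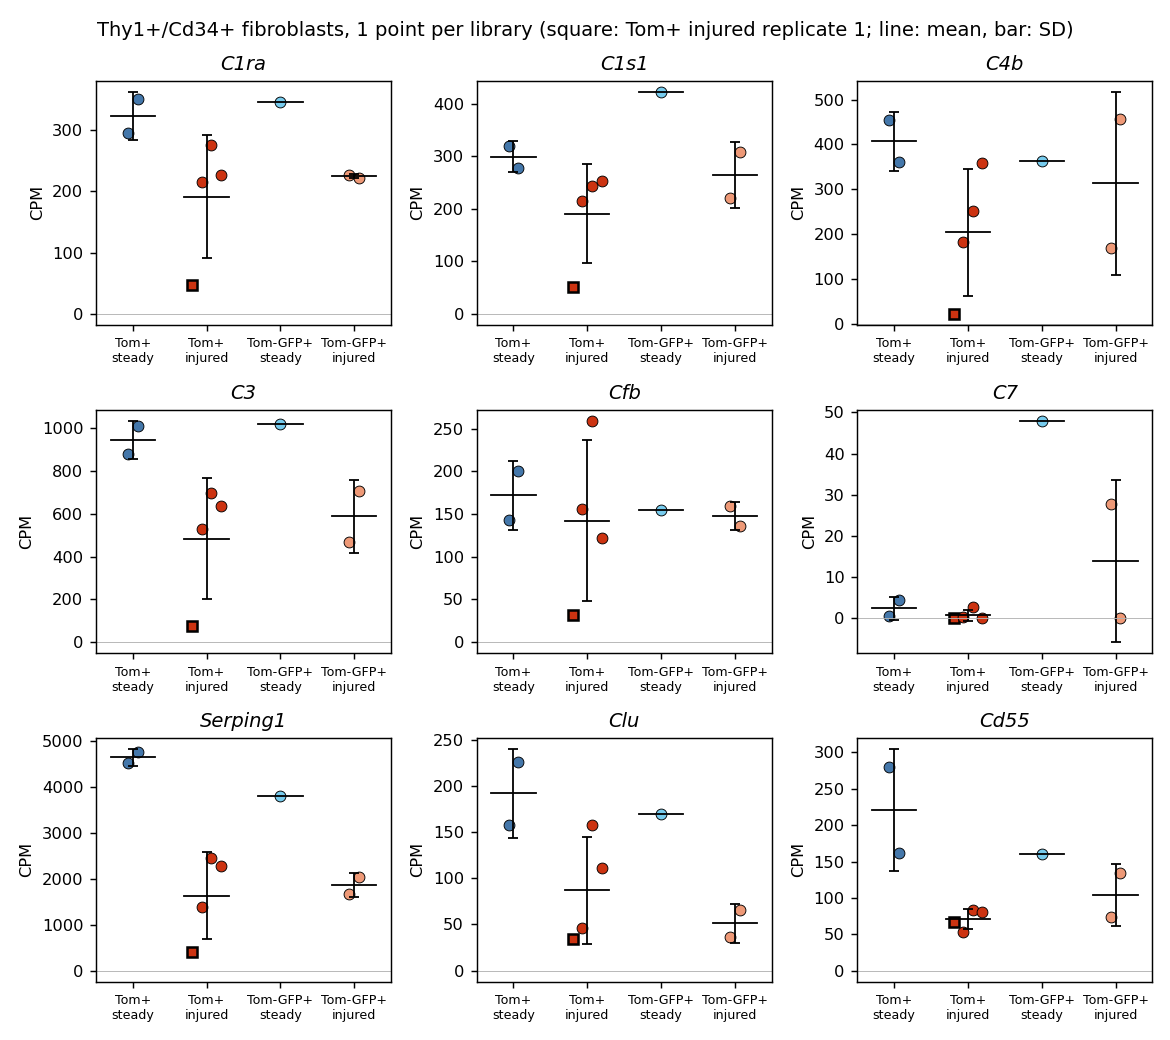
Level in CPM of the 9 genes in *Thy1*+/*Cd34*+ fibroblasts by lineage and injury, with a point for each library, a square for injured Tom+ replicate 1, a line at the mean and a bar for the SD. For *Serping1*, the steady-state Tom+ libraries sit at 4508 and 4766 CPM and the injured ones between 406 and 2446 CPM, with injured replicate 1 lowest.

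**Figure D4:**
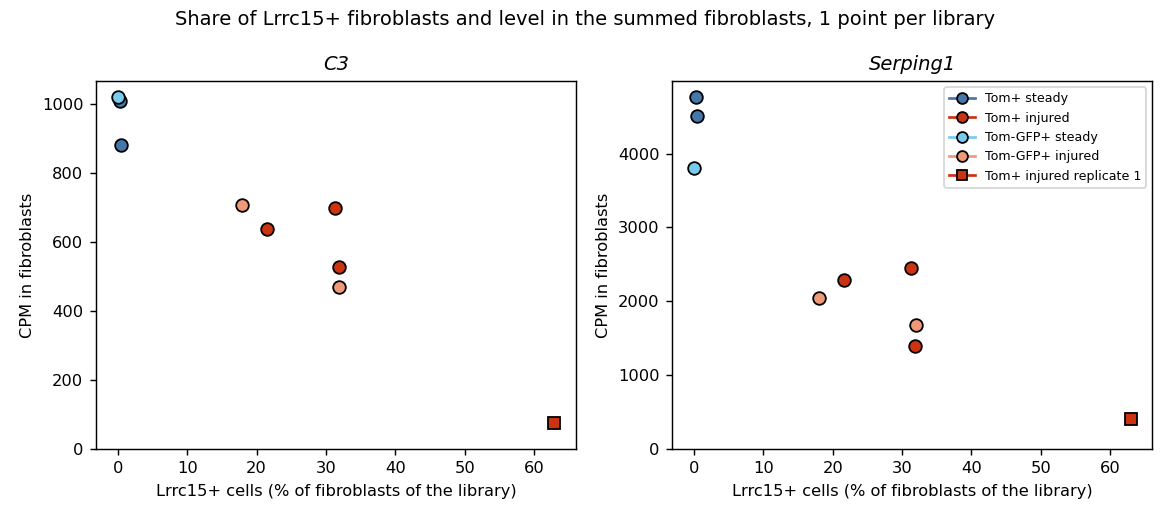
*C3* (left) and *Serping1* (right) in summed fibroblasts, in CPM, against *Lrrc15*+ cells as a percent of the library's fibroblasts, with a point for each of the 9 libraries coloured by group. Injured Tom+ replicate 1, the square at 62.9%, has the lowest *C3* (74.3 CPM) and *Serping1* (406 CPM).

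In Tom-GFP+ fibroblasts 0 of 9 members passed by edgeR's quasi-likelihood test, and 1 did at an unadjusted p under 0.05. Of all genes 1.16% were called, and 20.3% had such a p. *Serping1* was at 3801 CPM in the single steady-state library and at 1677 and 2045 CPM after injury (-1.05, SE 0.76, adjusted p = 0.477). *C3* was at 1020.3 CPM and then 469 and 709 CPM (-0.81, SE 0.91, adjusted p = 0.654). *Cd55* was at 159.7 and then 74.3 and 134 CPM. Without injured Tom+ replicate 1 in the fit, none of the 9 passed (*Serping1* -1.01, adjusted p = 0.0951, and *C3* -0.77, adjusted p = 0.139). With gene-list format as a block term the log2FC was -3.88 for *C3*, -3.38 for *Serping1* and -0.78 for *Cd55*. In that fit injured Tom+ replicate 1 is again the single library that separates injury from format. The spread of the single steady-state library is taken from the other groups. The test of the difference between the lineages in their response called 0 of 12727 genes (0.0%). DESeq2 called 2, and 216 genes (1.7%) but no member had an unadjusted p under 0.05.

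FLS were compared between states in Tom+ libraries, and 0 of the 8 members tested passed by edgeR's quasi-likelihood test, where 3.54% of 9558 genes were called. By unadjusted p under 0.05 there were 2, beside 20.3% of all genes. *Cd55* was at 249 and 230.0 CPM in the steady state and at 286, 289, 313 and 196 CPM after injury (0.25, SE 0.21, adjusted p = 0.570). *C3* was at 13.5 and 43.4 CPM, and at 1.83, 8.39, 4.86 and 3.47 CPM after injury, with no overlap (-2.55, SE 0.65, adjusted p = 0.0549). It passed by DESeq2 (-2.56, adjusted p = 0.0194) and without injured replicate 1 (-2.33, adjusted p = 0.0387). With 1 library left out the log2FC of *C3* ran from -3.04 to -1.36. Of the 53 steady-state FLS of both lineages, only 9.43% held a *C3* UMI. *Serping1* was at 226 and 273 CPM and then 349.9, 101, 153 and 81.2 CPM (-0.50, SE 0.47, adjusted p = 0.612). Injured replicate 1 was here the highest library, and without it *Serping1* was lower after injury (-1.11, adjusted p = 0.0204). *Cfb* had 0 UMIs in both steady-state libraries and 69 UMIs after injury, at least 1.68-fold higher when read against 3 counts over the group (3.96 CPM). Of these UMIs, 44 came from injured replicate 3 (14.2 CPM), and the other 3 injured libraries, at 3.21 to 3.55 CPM, lay under that limit, so no fold can be given without it.

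Near-identical copies were counted beside the members, and their part in the injury values was not tested. *C1s1*, *C1ra*, *C4b* and *Cd55* have the paralogs *C1s2*, *C1rb*, *C4a* and *Cd55b*, and reads that match both can be lost or split in counting. Per 100 *C1s1* UMIs in fibroblasts, *C1s2* had 14.5 and 14.9 in the steady-state Tom+ libraries, 15.5 in the steady-state Tom-GFP+ library and 11.3 in injured Tom+ replicate 1. The other injured libraries had 3.20, 4.54 and 3.44 (Tom+) and 4.06 and 2.60 (Tom-GFP+). Injured replicate 1 thus lay with the steady state. *C1rb* per 100 *C1ra* UMIs was 4.33 to 6.08 in these 4 libraries and 1.22 to 3.23 in the others, and *C4a* per 100 *C4b* UMIs was 1.32 to 2.83 and 0.0924 to 0.323. All 3 ratios split by the format of the gene list, without overlap. Injured replicate 1 is the only library that separates this format from injury. In the injury test, *C1s2* was at 43.9 ± 3.40 CPM and then 8.10 ± 2.29 CPM in Tom+ fibroblasts (-2.52, SE 0.24, adjusted p = 0.00136), and that call carries the same split. *Cd55b* had 8 UMIs in all fibroblasts, at most 2 in a library.

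**Figure D5:**
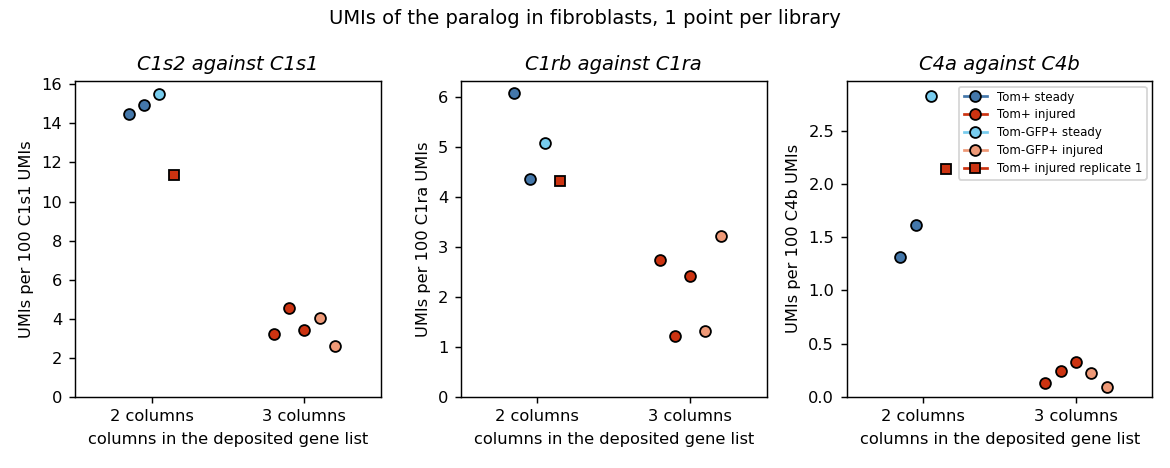
UMIs of *C1s2*, *C1rb* and *C4a* per 100 UMIs of *C1s1*, *C1ra* and *C4b* in fibroblasts, with a point for each library, by the number of columns in its gene list. The 4 libraries with 2 columns, which include injured Tom+ replicate 1 (square), lie above the other 5 in each ratio.

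Between the lineages, no member differed in fibroblasts by edgeR's quasi-likelihood test. In the injured state 0.0157% of genes were called and in the steady state 0.0157%, with 0 members in either. By unadjusted p under 0.05 there was 1 member in each, beside 5.05% and 4.64% of all genes. *C7* was found mostly in Tom-GFP+ libraries. Its 304 UMIs in fibroblasts came from 91 cells, 41 in the steady-state Tom-GFP+ library (131 UMIs) and 40 in injured Tom-GFP+ replicate 1 (150 UMIs). In injured Tom-GFP+ replicate 2, 0 of 167 cells held a *C7* UMI, which allows a share of cells with a UMI of up to 1.80%. In the Tom+ libraries there were 7 cells (12 UMIs) in steady-state replicate 2, 1 cell with 9 UMIs in injured replicate 3 and 0 or 1 cell in the others. The levels were 48.0, 27.9 and 0 CPM in the Tom-GFP+ libraries and 0 to 4.37 CPM in the Tom+ libraries, and the lineages overlapped through injured Tom-GFP+ replicate 2.

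*C7* went with *Fmo2*, a marker of one sublining cluster in the study. *C7* is itself a marker of that cluster, which was drawn from these same data. Their overlap is thus a description and no independent support. The 127 *Fmo2*+ cells of 2593 fibroblasts held 190 of the 304 *C7* UMIs. They made up 13.4% of fibroblasts in the steady-state Tom-GFP+ library, 10.1% and 3.59% in the injured Tom-GFP+ libraries and 0.267% to 4.37% in the Tom+ libraries. In the first of these, 22 *Fmo2*+ cells held 102 *C7* UMIs, and in injured Tom-GFP+ replicate 1, 21 held 88. In the Tom+ libraries none of the *Fmo2*+ cells, 42 in all, held a *C7* UMI.

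Across 25 means of class by group, the genes whose levels were most like each member's were listed by Pearson's r of log2(CPM + 1), over 13308 genes. These are descriptions, since the means share libraries and cells. For *C1s1* they were *Lama2* (0.939), *Serping1* (0.934) and *Tmod2* (0.916), and for *Serping1* *Nox4* (0.967), *Lama2* (0.963) and *Tmod2* (0.962). For *C1ra* they were *Nsg1* (0.946), *Prrx1* (0.935) and *Acat1* (0.929). For *C3* they were *Celf2* (0.925), *Adam33* (0.896) and *AW551984* (0.858), for *Cfb* *Col14a1* (0.949), *AW551984* (0.941) and *Ifi205* (0.934), and for *C4b* *Ace* (0.874), *Il11ra1* (0.866) and *Cfb* (0.861). The remaining 3 members had other neighbours. *Cd55* was nearest to *Pthlh* (0.856), *Vegfd* (0.784) and *Gm15675* (0.773), *C7* to *Adh1* (0.929), *Clec1a* (0.902) and *Inmt* (0.900), and *Clu* to *Crispld1* (0.900), *Chad* (0.892) and *Trim46* (0.864). Among the members themselves r was 0.934 for *C1s1* with *Serping1*, 0.861 for *C4b* with *Cfb*, 0.852 for *C3* with *Cfb* and 0.815 for the neighbouring *C1ra* and *C1s1*, while *Clu* ranged from -0.311 to 0.200 with the rest.

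Of 42 further complement genes, few were expressed enough to test. The subunits of C1q, which starts the classical pathway, were found almost wholly in immune cells, which held 3554 of 3598 *C1qa* UMIs, 4152 of 4212 *C1qb* UMIs and 3282 of 3314 *C1qc* UMIs. The same held for the anaphylatoxin receptors *C3ar1* (362 of 370) and *C5ar1* (454 of 480). *C5ar1* was also called higher in chondrocyte-lineage cells than in fibroblasts, where 22.4% of all genes were called. It was at 18.0 ± 23.6 CPM (n = 4 libraries) against 0.128 ± 0.306 CPM (n = 9), a log2FC of 5.81 (SE 1.35, adjusted p = 0.00621). Of the terminal components, *Hc* (which encodes C5) had 1 UMI in all cells, *C6* 25, *C8a* and *C8b* 0, *C8g* 30 and *C9* 3. Between FLS and fibroblasts, 2 of 12 tested were higher and 5 lower (37.7% of all genes were called), among them *Colec12*, a scavenger receptor of the collectin family (303 ± 37.1 against 111 ± 29.0 CPM, log2FC 1.36, SE 0.17, adjusted p = 1.25e-07), and *Masp1*, a protease of the lectin pathway (1.47 against 13.5 CPM, -2.75, SE 0.33, adjusted p = 1.08e-07).

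In the subsets of the sublining, *Dpp4*+ cells were higher than other fibroblasts in 1 of 9 tested genes of the list and lower in 3 (15.5% of all genes called), and *Lrrc15*+ cells were higher in 0 of 9 and lower in 6 (9.05% of all genes lower). Mural cells were higher than fibroblasts in 4 of 12 genes of the list and lower in 2 (16.8% of all genes called). Among those higher was vitronectin (*Vtn*), which binds the terminal complex. It was at 159.9 ± 56.7 CPM (n = 2 libraries) against 9.23 ± 6.90 CPM (n = 9), a log2FC of 5.08. Of the same 12 genes, osteoblast-lineage cells were higher in 2 and lower in 0 (13.3% of all genes called), chondrocyte-lineage cells higher in 2 and lower in 3 (22.4%), and tenocyte-lineage cells higher in 0 and lower in 3 (5.9%). After injury in Tom+ fibroblasts 0 of 15 tested rose and 4 were called lower, beside 7.19% of all genes. Of these, *C1s2*, *C1rb* and *C4a* are the paralogs whose ratios split by the format of the gene list, and the fourth, *Colec10*, a collectin, was at 6.61 ± 3.01 and 0.689 ± 0.737 CPM.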

How the data were processed

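The libraries were made with the 10x Genomics 5′ kit and counted by the authors with Cell Ranger on GRCm38.p6, per the labels. The header of 5 matrices names version 3.0.2, and 4 name none. The deposited values are raw UMI counts per gene and barcode, without normalization. The members and all gene lists were chosen with earlier results of these data known.

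Barcodes were kept with 500 genes or more, 1000 UMIs or more and no more than 10% mitochondrial UMIs, at a median of 8050.5 to 18567 UMIs per library. 12 barcode sequences occurred in more than 1 library. Cells were gated by the number of markers detected (at least 6 of 8 for FLS, 3 of 4 for fibroblasts, 4 of 7 for *Dpp4*+ and 3 of 5 for *Lrrc15*+ cells, and 3 or 4 for the other classes). No doublet caller was used in the main analysis. Cells matching several classes were left out, and the 5% with the highest Scrublet scores were dropped as an alternative. UMIs were summed per library and class with at least 10 cells and tested with edgeR 4.0.16 in R 4.3.3 (glmQLFit, TMM, filterByExpr, Benjamini-Hochberg over all genes, false discovery rate 0.05). Library was a block between classes and subsets of the same library, and group alone entered the injury and lineage tests. The standard error is the fold change over the square root of F. DESeq2 1.42.0 and other settings served as alternatives. Scanpy 1.11.5 was used to read and score cells. The code was tested on simulated counts. Intervals and limits at a count of 0 (3 counts) cover counting error alone. CPM was computed from summed counts. The 9 members were the genes named, and of 42 other pathway genes at most 3 with the smallest adjusted p among those called at 10 CPM or more, with paralogs, C1q genes and genes at 0. 1 gene of the pathway list is not reported here by name.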

Additional observations from a re-analysis of the deposited data

Results flagged for a closer look

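Among 48 values of a complement gene in a class and group of 4 libraries, 4 had a library far from the other 3 by Dixon's criterion, which flags about 1 group in 20 by chance. *Cfb* in FLS was at 14.2 CPM in injured Tom+ replicate 3 and at 3.21 to 3.55 CPM in the other injured Tom+ libraries. *C4b* in *Dpp4*+ fibroblasts was at 119 CPM in injured Tom+ replicate 1, against 455 to 494 CPM in the others. In tenocyte-lineage cells injured Tom+ replicate 3 was the highest library for *C3*, at 440.2 CPM against 37.1 to 93.2 CPM, and for *Serping1*, at 2283 CPM against 431 to 579 CPM.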

How the results depend on the processing

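For the fold changes given for members, 1089 values under alternative settings were computed. Of these 1011 kept their direction and side of the threshold, 29 lost a call, 37 gained one and 12 changed direction. In *Dpp4*+ cells alone the injury values of *C3* (0.0049), *Clu* (1.29), *C1ra* (0.0479), *C1s1* (0.47), *C4b* (0.52), *Cfb* (0.97) and *C7* (0.0262) in Tom+ fibroblasts turned. There *Cfb* also turned without *Lrrc15*+ cells (0.26). With 1 library left out *Cfb* ran from -0.77 (without injured replicate 3) to 0.0257 (without injured replicate 1) and *C7* from -4.83 (without injured replicate 3) to 0.11 (without steady-state replicate 2), and in Tom+ FLS *Serping1* turned with gene-list format as a block term (0.51) and with injured replicate 1 alone against the steady state (0.51). The counts of all genes called moved more than those values, and the cause was not tested. With no filter on low counts they were 2892 for injury in Tom+ fibroblasts, 1667 in Tom-GFP+ fibroblasts and 1086 in FLS, 65 for the lineage difference in response, 405 and 234 for lineage in injured and steady-state fibroblasts, and 960 for tenocyte-lineage cells. With DESeq2 they were 515 for injury in Tom-GFP+ fibroblasts, 2 for the difference in response and 47 and 23 for lineage, injured and steady. With stricter gates they were 94 for injury in Tom-GFP+ fibroblasts, 0 for lineage in the steady state, 106 for tenocyte-lineage and 945 for *Lrrc15*+ cells. With the format as a block they were 806 for injury in Tom-GFP+ fibroblasts, 88 in FLS, 1 for the difference in response and 9 and 24 for lineage. In *Dpp4*+ cells alone they were 474 and 244 for injury in Tom+ and Tom-GFP+ fibroblasts, 1 for the difference and 7 for lineage in the steady state. Injury called 2580 genes with injured Tom+ replicate 1 alone against the steady state. In Tom-GFP+ fibroblasts it called 96 without the highest Scrublet scores and 296 without cycling cells. Lineage called 4 in the steady state without cycling or without *Lrrc15*+ cells, and 4 in injured cells at the stricter cell filter. Gates on thinned cells, added after seeing the data, gave 91 for injury in Tom-GFP+ fibroblasts, 4 for lineage in injured ones, 1319 for chondrocyte-lineage and 285 for *Lrrc15*+ cells.

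Leaving out 1 library at a time gave 165 to 2005 genes for injury in Tom+ fibroblasts, 0 to 1117 in Tom-GFP+ fibroblasts and 20 to 545 in FLS, 0 to 1 for the difference in response, 1 to 9 and 0 to 29 for lineage in injured and steady-state cells, 767 to 1247 for osteoblast-lineage and 685 to 1633 for mural cells. For injury in Tom+ fibroblasts, 165 and 172 genes remained without steady-state replicates 1 and 2, and 738 and 707 without injured replicates 2 and 3. In Tom-GFP+ fibroblasts 1117 were called without injured Tom+ replicate 1, at most 58 without either steady-state Tom+ library or injured Tom+ replicates 2 or 3, 0 without injured Tom-GFP+ replicate 1 and 17 without replicate 2. In FLS 545 were called without injured replicate 1 and 20 to 192 without another Tom+ library. Osteoblast-lineage called 767 without steady-state Tom+ replicate 2, and mural cells 685 and 885 without injured Tom+ replicates 1 and 2. Lineage called 29 in the steady state and 9 in injured cells without injured Tom+ replicate 1. Without the only steady-state Tom-GFP+ library no value could be computed for the 3 comparisons that need it.

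Correlations of deviations between same-numbered libraries ran from -0.0458 to 0.300, the highest between injured replicate 1 of Tom+ and of Tom-GFP+. Libraries with different numbers were not correlated for reference, so these values cannot show whether replicate numbers pair the libraries. With the replicate block, injury called 514 genes in Tom-GFP+ fibroblasts and 173 in FLS, and lineage 4 and 1. In Tom+ fibroblasts *Serping1* (-2.62, adjusted p = 0.0108), *Clu* (-2.30, adjusted p = 0.00265) and *C4b* (-2.73, adjusted p = 0.0473) then passed, and in Tom-GFP+ fibroblasts *Clu* did (-2.11, adjusted p = 0.0166).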

Other observations

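The cells that passed no gate held 39.2% of all *Clu* UMIs, and most of these were in few cells. A split made after the values were seen found 69 of 686 such cells with *Clu* over 2000 CPM, which together held 6916 *Clu* UMIs, against 748 in the rest. In the 69 cells, the adipocyte genes *Cfd* (which encodes complement factor D) and *Adipoq* were at 12107 and 1462 CPM, against 1603 and 255 CPM in the rest. These are sums over cells, and whether single cells held *Clu* together with these genes was not tested. Cartilage and tendon markers were not read in this split. In fibroblasts *Cfd* was at 13.2 ± 37.3 CPM (SD, n = 9 libraries), and in 1 injured Tom+ library it reached 113 CPM.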
